A study of Mus musculus with 156 samples.

Results

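The livers of 10 mice of 24 months were compared with the livers of 10 mice of 2 months. These are all liver libraries of both ages and make up 20 of the 156 RNA sequencing libraries of a study that took colon, liver and brain from male mice of 5 ages between 2 and 30 months. They were chosen by tissue, age label and library batch alone, and every gene counted in them was open to the comparison. All 20 mice were untreated males of C57BL/6J/Ukj, a substrain derived from C57BL/6J and bred at the authors' institute, and were kept under the same conditions until their age group was due. All 20 libraries belong to the batch labelled Run 2, so that age and run were not mixed in this comparison. Mice are named by age and number, as in 24M.N3 for mouse 3 of 24 months. Each library is a separate mouse, but mice were housed with others of their birth cohort and cages are not given, with at most 2 mice taken from a cage, so that age, birth cohort and cage cannot be told apart.

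The liver is made up mostly of hepatocytes, which secrete plasma proteins, make bile acids, store and release glucose and lipid, and detoxify foreign compounds. Among them stand the cells that line the blood channels, the collagen-making stellate cells, the bile ducts and the resident macrophages of the liver, the Kupffer cells, with lymphocytes that come and go. The male pattern of growth hormone pulses keeps a set of hepatocyte genes high in males and another set low, and the pattern reverses in females. Liver genes also follow a daily rhythm set by the circadian clock and by feeding. In bulk tissue, fewer cells of a type and less RNA per cell cannot be told apart.

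The 20 libraries held between 20418489 and 37381903 counts on genes (median 26683998.5), and levels are given as CPM, counts scaled to library size with TMM factors, which balance the bulk of genes between libraries. The albumin gene Alb, the main product of hepatocytes, was high in all of them, with a median of 71483 CPM (26959 to 109851) at 2 months and a median of 76270.2 CPM (9371 to 94497) at 24 months. Several libraries stood apart from their group. The liver of 24M.N3 had a median correlation of 0.775 with the other livers of 24 months, that of 24M.N10 had 0.921, that of 2M.N9 had 0.946 with the other livers of 2 months, and the remaining 17 had at least 0.967. Counts on 83 ribosomal protein genes took 1.46% to 1.95% of the library in those 17 livers, against 10.7% in 24M.N3, 5.40% in 2M.N9 and 3.51% in 24M.N10. In 2M.N9 and 24M.N3 the 1286 genes with the longest transcripts were lower relative to the 1287 with the shortest (−0.94 and −0.77 on the log2 scale, against −0.08 to 0.13 elsewhere). The liver of 2M.N2 held transcripts of the exocrine pancreas, with 103 CPM of Cela2a, 98.3 of Cpa1 and 95.1 of Prss2, where no other liver exceeded 1.14 CPM of these genes. Results are therefore also given without 24M.N3 and 24M.N10 and, where it matters, without 2M.N2 and 2M.N9 as well, the last a choice made after the data were seen.

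Of 14261 genes tested with edgeR's quasi-likelihood test, 3495 (24.5%) reached a p of 0.05 or less after Benjamini-Hochberg adjustment, the call used throughout. Upregulation at 24 months was called for 2224 genes (15.6%) and downregulation for 1271 (8.91%). Large changes were mostly increases: 1490 genes called up and 258 called down changed by more than 1 on the log2 scale. Without 24M.N3 and 24M.N10 the test called 3355 of 14341 genes (23.4%), with 1989 increases (13.9%) and 1366 decreases (9.53%), of which 861 and 195 exceeded 1 on the log2 scale. Of the original calls, 1785 of the 2224 increases and 1072 of the 1271 decreases were called in the same direction without these livers. Without 2M.N2 and 2M.N9 as well it called 4041 of 14223 genes (28.4%), with 2279 increases (16.0%) and 1762 decreases (12.4%). Every liver of 24 months was above every liver of 2 months for 479 genes (3.36%) and below for 129 (0.905%). When libraries were scaled by their total counts in place of the TMM factors, all changes shifted upward by a median of 0.20, and the share of increases among the calls moved from 63.6% to 84.1% (3333 up, 632 down). Changes below are log2 values of 24 over 2 months, relative to TMM scaling.

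The spread between mice at each age moved with single livers. The median standard deviation of log2 CPM over genes was 0.32 at 2 months and 0.46 at 24 months, and 74.4% of genes varied more among the older mice. Without 24M.N3 and 24M.N10 the median at 24 months was 0.24 and the share fell to 35.3%, and without 2M.N9 too the medians were 0.22 and 0.24 and the share was 56.9%.

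Genes were grouped in 34 lists by function or cell type. The plot of list medians shows them with and without the pair of atypical livers. With all livers the neutrophil list stood highest, with a median of 5.64 that was 2.08 without the pair. Lists of B and plasma cells, T and NK cells and MHC class II presentation followed, with medians of 3.52, 3.48 and 2.60, or 2.77, 2.099 and 2.07 without these livers. The major urinary proteins (−4.13 and −3.85) and other male-biased genes (−1.58 and −1.52) stood lowest. The median over all genes tested was −0.00018 with all livers and −0.03 without the pair.

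**Figure D1:**
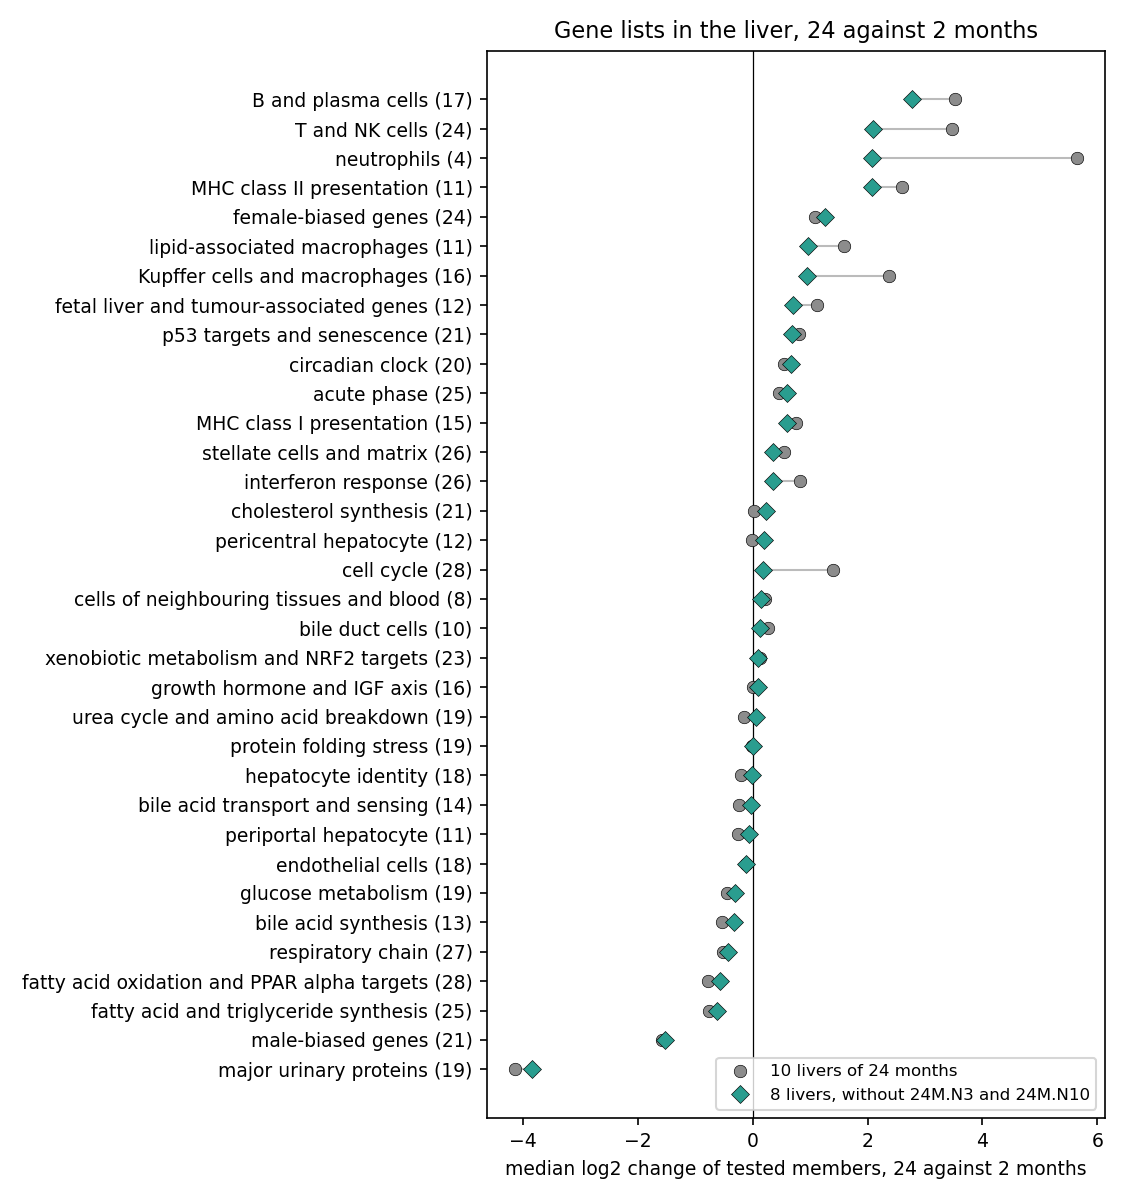
Median log2 change between 24 and 2 months (x axis) of the tested members of each gene list (y axis, number tested in parentheses), with all 10 livers of 24 months (grey circles) and without 24M.N3 and 24M.N10 (green diamonds). The neutrophil list moved most between the settings, from 5.64 to 2.08, and the cell cycle list fell from 1.41 to 0.17; the major urinary proteins stayed lowest in both settings.

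The largest decreases fell on genes that are high in male livers. All 19 tested major urinary protein genes (of 21 listed) fell with age, 16 of 21 tested male-biased genes fell and 1 rose, and the sum of the major urinary proteins was 2841 to 36041 CPM at 2 months and 490 to 5428 CPM in the 8 typical livers of 24 months, with 385 CPM in 24M.N3 and 306 in 24M.N10. Major urinary proteins are pheromone carriers that the liver secretes into the blood and the kidney passes on into the urine. Their genes are near-identical copies in a cluster on chromosome 4, so that reads can be split or lost between them and single members are uncertain. Without the pair of atypical livers 18 of 19 were called down, and without 2M.N2 and 2M.N9 as well, 16.

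The lowest, median and highest values of Mup11 (chromosome 4 from 60658466 to 60662411) were 25.6, 334 and 645 CPM at 2 months and 0.108, 2.48 and 13.5 CPM at 24 months. Every old liver was below every young one, and the log2 change was −6.16 (SE 0.73, edgeR adjusted p = 1.68e-05). For Mup7 they were 341, 4773 and 9993 CPM and 0.860, 41.8 and 1328 CPM, with a change of −4.13 (SE 1.10, edgeR adjusted p = 0.00893). Another 8 members were among the 12 largest decreases (genes with a mean log2 CPM of at least 1, called in the same direction with and without 24M.N3 and 24M.N10), with changes from −5.80 for Mup15 to −4.59 for Mup17. Mup20, which encodes the male pheromone darcin, went from a median of 1086 CPM (397 to 5013) to a median of 204 CPM (41.7 to 1078), a change of −1.91 (SE 0.54, edgeR adjusted p = 0.0133) that was −1.21 (edgeR adjusted p = 0.0913) without all 4 livers named above.

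Enzymes of the male pattern showed the same decrease with a wide spread at 24 months. Hsd3b5 (chromosome 3 from 98618634 to 98630252), a male-specific steroid dehydrogenase, had 78.2, 266 and 380 CPM as the lowest, median and highest values at 2 months and 0.320, 1.47 and 93.5 CPM at 24 months, a change of −4.18 (SE 0.94, edgeR adjusted p = 0.00267). Elovl3 (chromosome 19 from 46131897 to 46135694), an elongase of very long fatty acids, had 521, 1049 and 1594 CPM at 2 months and 0.457, 12.7 and 420 CPM at 24 months, with no overlap and a change of −3.48 (SE 0.99, edgeR adjusted p = 0.0136). The old livers covered almost 3 orders of magnitude: 420, 288 and 182 CPM of Elovl3 in 24M.N4, 24M.N6 and 24M.N2 against under 1 CPM in 24M.N7, 24M.N8 and 24M.N10. Cyp4a12a, a fatty acid hydroxylase, changed by −2.77 (SE 0.72, edgeR adjusted p = 0.00790), Cyp2d9 by −1.99 (SE 0.50, edgeR adjusted p = 0.00637) and the organic anion transporter Slco1a1 by −3.03 (SE 0.86, edgeR adjusted p = 0.0128). Gstp1, a glutathione transferase, fell more evenly, from a median of 1553 CPM (688 to 2057) to a median of 285 CPM (119 to 633) without overlap, a change of −2.17 (SE 0.26, edgeR adjusted p = 1.85e-05). Selenbp2 changed by −3.10 (SE 0.41, edgeR adjusted p = 4.14e-05). Bcl6, a repressor of female genes in male liver, had a median of 60.1 CPM (11.6 to 118) at 2 months and a median of 9.69 CPM (5.91 to 63.9) at 24 months. Its change of −1.48 (SE 0.53, edgeR adjusted p = 0.0467) was −1.28 (edgeR adjusted p = 0.106) without the pair of atypical livers and was called in only 7 of the 20 fits that each left out 1 liver.

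Female-biased genes moved the other way. Of 33 listed genes 24 passed the filter on low counts, 15 of these rose and none fell in edgeR (16 rose without 24M.N3 and 24M.N10). DESeq2 called 14 up and 1 down. Slc22a26 (chromosome 19 from 7781041 to 7802667), an organic anion transporter with close relatives beside it, rose from a median of 0.705 CPM (0.0886 to 1.116) to a median of 48.8 CPM (5.81 to 229), by 6.66 (SE 0.72, edgeR adjusted p = 6.92e-06). The female-specific Cyp2b9 rose from a median of 0.552 CPM (0.111 to 12.2) to a median of 35.2 CPM (0.244 to 246), by 5.08 (SE 1.01, edgeR adjusted p = 0.00107); its highest values at 2 months were in 2M.N4 and 2M.N3. Cux2, the transcription factor of the female liver, rose by 4.03 (SE 0.65, edgeR adjusted p = 0.000210). Ntrk2, a neurotrophin receptor, showed one of the steadiest increases, from a median of 0.620 CPM (0.359 to 1.06) to a median of 13.5 CPM (5.97 to 25.5) without overlap, by 4.44 (SE 0.28, edgeR adjusted p = 4.37e-09). A1bg had too few counts for the test: it had a median of 0.183 CPM (0 to 0.301) at 2 months and a median of 0.957 CPM (0.0914 to 691) at 24 months, the highest value coming from 24M.N7. Sult3a1 was not tested either, with at most 0.129 CPM at 2 months and up to 6.62 CPM at 24 months. Sult1e1, which sulfates estrogens, was not on the list but belonged to the 12 largest increases of the comparison. It rose from a median of 0.0477 CPM (0 to 0.429) to a median of 1.94 CPM (0.473 to 34.5), by 6.05 (SE 0.91, edgeR adjusted p = 0.000112).

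**Figure D2:**
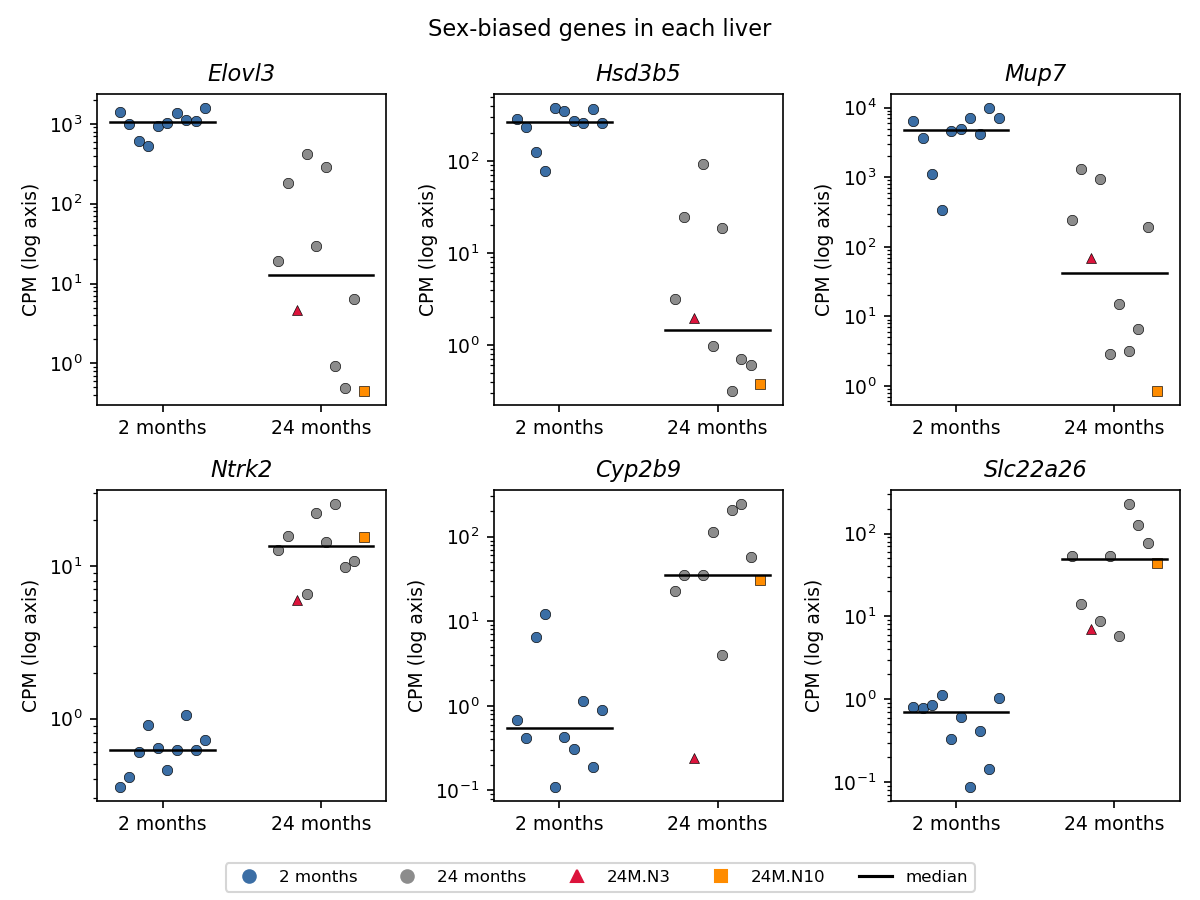
Level of 3 male-biased genes (top row) and 3 female-biased genes (bottom row) in each liver, in CPM on log axes; bars are medians, triangles 24M.N3 and squares 24M.N10. The 24-month livers with the most Elovl3 and Hsd3b5 (24M.N2, 24M.N4 and 24M.N6) had 5.81 to 14.1 CPM of Slc22a26 and 24M.N3 had 7.01, and every liver of 24 months was above every liver of 2 months in Ntrk2 and Slc22a26.

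In the 3 mice with the most Elovl3 at 24 months Slc22a26 was 14.1 CPM (24M.N2), 8.75 (24M.N4) and 5.81 (24M.N6). In 24M.N7, 24M.N8 and 24M.N10, where Elovl3 was under 1 CPM, Slc22a26 was 229, 127 and 44.2 CPM. The other 4 did not keep that order: 24M.N3 was low in both, with 4.72 CPM of Elovl3 and 7.01 of Slc22a26, and 24M.N9, 24M.N1 and 24M.N5, with 6.34 to 29.6 CPM of Elovl3, had 53.4 to 77.7 CPM of Slc22a26, above 24M.N10. Among the young livers, 2M.N3 and 2M.N4 had the 2 lowest levels of Elovl3 (618 and 521 CPM), Hsd3b5 (124 and 78.2) and Mup7 (1115 and 341).

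Growth hormone acts on hepatocytes through its receptor and the STAT5 factors. Of 16 tested genes of the growth hormone and insulin-like growth factor axis, Socs3 rose by 1.51 (SE 0.27, edgeR adjusted p = 0.000433), Igfbp1 fell by 1.91 (SE 0.50, edgeR adjusted p = 0.00813) and Stat5b, the transducer of growth hormone pulses, changed by −0.55 (SE 0.13, edgeR adjusted p = 0.00494). The other 13 were not called, so that 3 of 16 stood against 24.5% of all genes. Without the pair of atypical livers 2 genes of the list rose and 4 fell, against 23.4% of all genes called. The growth hormone receptor Ghr was 349 to 631 CPM at 2 months and 269 to 423 CPM in the 8 typical old livers, with 42.9 CPM in 24M.N3 and 143 in 24M.N10. Its change was −0.68 (SE 0.26, edgeR adjusted p = 0.0569) with all livers and −0.45 (edgeR adjusted p = 0.0101) without the pair. Igf1, the main growth factor released in response, had a median of 500 CPM (392 to 560) at 2 months and a median of 496 CPM (260 to 584) at 24 months, a difference of −0.01 (SE 0.14, edgeR adjusted p = 0.969).

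Antigen presentation by MHC class II rose in the old livers. All 11 tested genes of the list were called up, with changes from 2.17 to 3.68, and 11 of 11 again without 24M.N3 and 24M.N10. These molecules show peptides to helper T cells and are made by dendritic cells, macrophages and B cells. The lowest, median and highest values of H2-Aa (chromosome 17 from 34282744 to 34287823), the alpha chain of I-A, were 17.4, 35.7 and 47.1 CPM at 2 months and 50.9, 159 and 677 CPM at 24 months. There was no overlap, and the change was 2.58 (SE 0.35, edgeR adjusted p = 4.78e-05) with all livers and 2.09 (edgeR adjusted p = 2.66e-06) without the pair. H2-Eb1 (chromosome 17 from 34305867 to 34316674), the beta chain of I-E, went from a median of 26.3 CPM (11.5 to 36.0) to a median of 123 CPM (38.9 to 575), a change of 2.73 (SE 0.37, edgeR adjusted p = 4.75e-05). H2-Ab1 changed by 2.50 (SE 0.34, edgeR adjusted p = 4.93e-05) and Cd74, the invariant chain, by 2.39 (SE 0.35, edgeR adjusted p = 9.20e-05). Ciita, the activator that switches these genes on, rose from a median of 1.50 CPM (0.856 to 2.13) to a median of 7.96 CPM (3.73 to 44.3), by 2.92 (SE 0.38, edgeR adjusted p = 3.52e-05). The summed level of the list was 115 to 305 CPM at 2 months and 385 to 1446 CPM in the 8 typical livers of 24 months, with 1746 CPM in 24M.N3 and 3559.5 in 24M.N10.

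Class II promoters share a set of short elements read by the complex that Ciita joins. To show one of them, the 250 bases before the start of H2-Aa and H2-Eb1 are given here from RefSeq (GRCm38.p6), 5′ to 3′ on the strand of the gene, at chr17:34287824-34288073 on the minus strand and chr17:34305617-34305866 on the plus strand. Capitals mark the letters CTGATTGG, the core of the Y box, searched on both strands.
H2-Aa: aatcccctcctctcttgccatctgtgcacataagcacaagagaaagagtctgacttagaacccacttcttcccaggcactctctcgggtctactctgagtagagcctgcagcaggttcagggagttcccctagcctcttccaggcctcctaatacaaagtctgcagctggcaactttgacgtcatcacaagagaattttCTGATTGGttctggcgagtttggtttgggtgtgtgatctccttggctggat
H2-Eb1: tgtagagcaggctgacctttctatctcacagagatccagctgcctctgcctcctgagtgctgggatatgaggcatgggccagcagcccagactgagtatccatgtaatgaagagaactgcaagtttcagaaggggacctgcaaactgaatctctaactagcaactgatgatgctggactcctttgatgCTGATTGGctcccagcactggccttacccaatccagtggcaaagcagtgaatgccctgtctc
The match began 51 bases before the start of H2-Aa and 62 bases before that of H2-Eb1. The same letters stood in 3.83% of 32851 promoter windows of this length. A match describes the sequence and was not tested as a binding site.

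Class I presentation rose by smaller steps. Of 15 tested genes 13 were called up (14 without the pair), with a median of 0.76. H2-D1, which encodes a classical class I chain, went from a median of 516 CPM (341 to 615) to a median of 971 CPM (650 to 1325) without overlap, a change of 0.89 (SE 0.14, edgeR adjusted p = 0.000134), and H2-Q4 from a median of 43.0 CPM (33.4 to 53.03) to a median of 93.2 CPM (66.3 to 204), a change of 1.22 (SE 0.16, edgeR adjusted p = 4.70e-05); class I genes are similar in sequence and can share reads. B2m, the common light chain, changed by 0.21 (SE 0.13, edgeR adjusted p = 0.245). Of 26 genes of the interferon response 15 rose with all livers and 9 without the pair, and the median fell from 0.83 to 0.35. The shares of all genes called up in these settings were 15.6% and 13.9%. The guanylate-binding protein gene Gbp2 rose from a median of 6.62 CPM (5.17 to 8.41) to a median of 26.1 CPM (14.8 to 84.1) without overlap, by 2.40 (SE 0.28, edgeR adjusted p = 1.32e-05). Zbp1, a sensor of nucleic acids, rose by 1.92 (SE 0.28, edgeR adjusted p = 7.94e-05) and Cxcl9, a chemokine that draws T cells, by 2.19 (SE 0.41, edgeR adjusted p = 0.000709). Ifit1 did not pass the test (change 0.34, SE 0.22, edgeR adjusted p = 0.277). Irf7, a regulator of interferon production, and the antiviral Mx1 rose by 1.38 and 1.39 with all livers, and changed by 0.57 (edgeR adjusted p = 0.0126) and 0.46 (edgeR adjusted p = 0.122) without the pair; both were picked out after their values were seen.

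Transcripts of T and NK cells rose from low levels. Of 28 listed genes 24 passed the filter, 22 of these rose and none fell (21 without the pair), and for 15 of them all old livers were above all young ones, against 3.36% of all genes tested. Genes almost silent at 2 months, such as Cd8a, Cd8b1 and Gzmk, could pass the count filter almost only through the old livers. Their increase and lack of overlap are therefore partly set by the filter, and 3.36% is no yardstick for such genes. The summed level of the list was 8.54 to 26.5 CPM at 2 months and 34.3 to 133 CPM in the 8 typical old livers, with 422 CPM in 24M.N3 and 521 in 24M.N10. Cd8a (chromosome 6 from 71373427 to 71379173), a chain of the receptor of cytotoxic T cells, had 0.0443, 0.182 and 0.381 CPM at 2 months and 1.84, 3.24 and 24.1 CPM at 24 months as the lowest, median and highest values, a change of 5.25 (SE 0.59, edgeR adjusted p = 9.16e-06). Its partner Cd8b1 changed by 4.94 (SE 0.61, edgeR adjusted p = 2.22e-05). Gzmk, a granzyme of memory T cells, had 5 counts in all over the 10 young livers and a median of 1.49 CPM (0.613 to 12.2) at 24 months, so that its fitted change of 6.89 (SE 0.80, edgeR adjusted p = 1.32e-05) leans on very few reads. Ccl5, a chemokine made by such cells, rose from a median of 1.22 CPM (0.705 to 1.86) to a median of 12.5 CPM (5.84 to 110), by 4.61 (SE 0.54, edgeR adjusted p = 1.48e-05). Cd3e, part of the T cell receptor complex, rose by 3.46 (SE 0.54, edgeR adjusted p = 0.000168) and Cd2 by 4.14 (SE 0.54, edgeR adjusted p = 3.26e-05). The helper cell marker Cd4 was not called (change 0.41, edgeR adjusted p = 0.656).

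B and plasma cell genes rose alike. Of 20 listed genes 17 passed the filter and 15 rose, with and without the pair of atypical livers, and the summed level was 24.3 to 64.5 CPM at 2 months and 230 to 645 CPM in the 8 typical old livers. Igkc (chromosome 6 from 70726435 to 70726966), the constant region of kappa light chains, had 2.36, 6.999 and 9.76 CPM at 2 months and 50.5, 98.6 and 357 CPM at 24 months, a change of 4.26 (SE 0.37, edgeR adjusted p = 5.46e-07). Ighg2b, the constant region of a class of IgG, rose from a median of 1.29 CPM (0.215 to 2.06) to a median of 29.3 CPM (5.84 to 57.6), by 4.51 (SE 0.43, edgeR adjusted p = 1.20e-06); 24M.N3 and 24M.N10 did not lead the old livers in this gene. Jchain, which joins antibodies into larger forms, rose by 4.02 (SE 0.62, edgeR adjusted p = 0.000139), and the B cell receptor gene Cd79a by 3.52 (SE 0.51, edgeR adjusted p = 7.84e-05). None of these 4 genes overlapped between the ages. Mzb1 had too few counts to be tested, with at most 0.215 CPM at 2 months and 2.82 CPM at 24 months.

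Macrophage genes rose, with by far the highest levels in 24M.N3. All 16 tested genes of Kupffer cells and macrophages rose with all livers and 15 without 24M.N3 and 24M.N10, while the median change dropped from 2.38 to 0.94. Their sum was 553 to 1416 CPM at 2 months, 1051 to 2246 CPM in the 8 typical old livers, 2813 in 24M.N10 and 20078 in 24M.N3. The highest young value was that of 2M.N9, and the other young livers reached at most 923 CPM. DESeq2 called 6 of the 16 and gave no adjusted p for the other 10. Clec4f, a receptor found only on Kupffer cells, had a median of 160 CPM (107 to 276) at 2 months and 120 to 273 CPM in the 8 typical old livers, against 2653 CPM in 24M.N3, and its change went from 1.46 (SE 0.53, edgeR adjusted p = 0.0474) to 0.15 (edgeR adjusted p = 0.603) without the pair. The call of Clec4f held in 9 of the 20 fits that each left out 1 liver. Itgax, which encodes CD11c, rose from a median of 1.17 CPM (0.515 to 1.50) to a median of 5.71 CPM (3.53 to 37.3), by 3.06 (SE 0.42, edgeR adjusted p = 4.88e-05) and by 2.47 (edgeR adjusted p = 9.14e-08) without the pair, and Cx3cr1, a chemokine receptor, by 2.80 (SE 0.38, edgeR adjusted p = 4.75e-05) and 2.12 (edgeR adjusted p = 1.41e-06).

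Of 11 genes linked to lipid-laden macrophages 7 rose, with and without the pair. Gpnmb (chromosome 6 from 49036546 to 49070929), a glycoprotein of phagocytes loaded with lipid, had 0.161, 0.458 and 2.19 CPM at 2 months and 1.40, 7.85 and 30.3 CPM at 24 months and changed by 3.90 (SE 0.53, edgeR adjusted p = 4.75e-05). Its lowest old value came from 24M.N3, and the change was 4.01 (edgeR adjusted p = 2.62e-06) without the pair. Trem2, a lipid receptor, had a median of 0.785 CPM (0.450 to 1.38) at 2 months, 2.37 to 4.27 CPM in the 8 typical old livers and 129 CPM in 24M.N3. The change of Trem2 was 4.28 (SE 0.86, edgeR adjusted p = 0.00115) with all livers and 1.89 (edgeR adjusted p = 3.22e-06) without the pair. Mmp12, a protease of macrophages, rose by 3.48 (SE 0.54, edgeR adjusted p = 0.000149), and Lgals3 by 2.58 (SE 0.46, edgeR adjusted p = 0.000466) or 1.43 (edgeR adjusted p = 7.02e-08). Spp1, Lpl and Cd63 rose too, whereas Apoe, Cd9, Ctsd and Fabp5 were not called.

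Neutrophil genes were far higher in 24M.N3 than in any other liver. Only 4 of 13 listed genes passed the filter and all 4 rose. S100a9, a calcium-binding protein of neutrophils and monocytes, had a median of 1.21 CPM (0.655 to 3.95) at 2 months and 2.87 to 24.2 CPM in the 8 typical old livers, against 1923 CPM in 24M.N3. Its change was 7.24 (SE 1.41, edgeR adjusted p = 0.000929) with all livers and 2.79 (edgeR adjusted p = 3.23e-05) without the pair, and S100a8 behaved alike (change 7.05, SE 1.38, edgeR adjusted p = 0.000962 with all livers). Csf3r, the receptor of the granulocyte growth factor, rose by 1.96 (SE 0.32, edgeR adjusted p = 0.000211) and by 1.41 (edgeR adjusted p = 7.25e-07) without the pair. DESeq2 gave no adjusted p for these 4 genes.

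**Figure D3:**
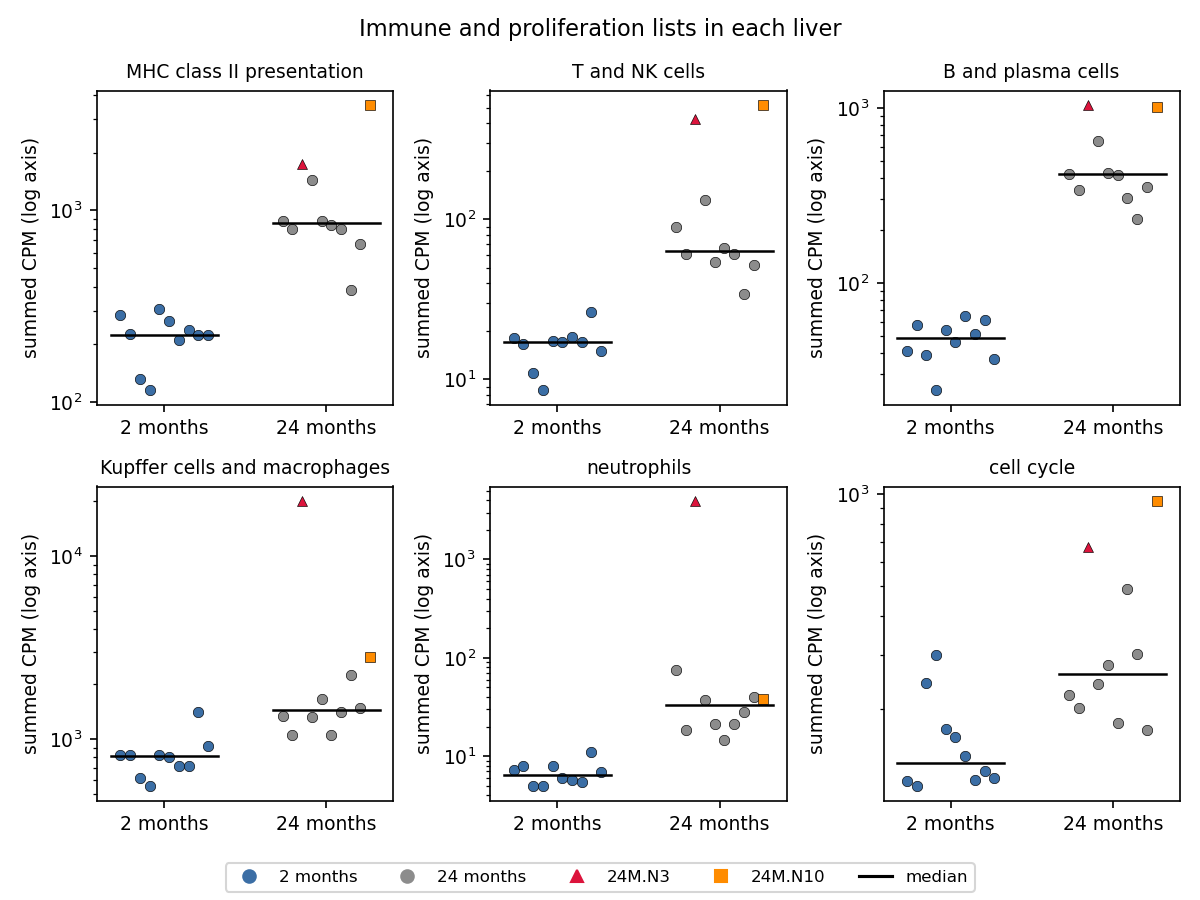
Summed CPM (log axis) of 6 gene lists in each liver of 2 and 24 months; bars are medians, triangles 24M.N3 and squares 24M.N10. In the MHC class II, T and NK cell, and B and plasma cell panels all livers of 24 months sit above all livers of 2 months, and in the macrophage and neutrophil panels 24M.N3 stands far above the rest.

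Another 3 immune genes were among the 12 largest increases. Ccl8, a monocyte chemokine, had at most 0.216 CPM at 2 months and a median of 1.87 CPM (0.795 to 71.0) at 24 months, and changed by 6.85 (SE 1.08, edgeR adjusted p = 0.000174) or by 3.90 (edgeR adjusted p = 2.22e-07) without the pair. Chil3, a chitinase-like protein of macrophages, changed by 5.83 (SE 1.25, edgeR adjusted p = 0.00189) and 2.07 (edgeR adjusted p = 0.00515), with 137 CPM in 24M.N3. H2-M2, a nonclassical class I gene, changed by 4.95 (SE 0.82, edgeR adjusted p = 0.000250) and 3.63 (edgeR adjusted p = 1.58e-06).

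Fatty acid oxidation fell. Of 28 genes of oxidation and of targets of the fasting receptor PPAR alpha, 14 were called down and none up (17 down without the pair). The median was −0.79 with all livers and −0.58 without the pair. The summed level was 7559 to 16579.8 CPM at 2 months and 6316 to 12636 CPM in the 8 typical old livers. The lowest young value was that of 2M.N9, and the other young livers had at least 11350 CPM. Acot1, a thioesterase that splits fatty acyl-CoA, had 9.95, 24.6 and 37.7 CPM at 2 months and 0.887, 3.25 and 9.84 CPM at 24 months, with no overlap and a change of −2.44 (SE 0.36, edgeR adjusted p = 0.000107). Eci1, an enzyme for unsaturated fatty acids in mitochondria, fell from a median of 117 CPM (88.3 to 172) to a median of 63.6 CPM (24.9 to 99.7), a change of −1.02 (SE 0.19, edgeR adjusted p = 0.000637). The receptor gene Ppara was not called (−0.47, SE 0.34, edgeR adjusted p = 0.334), nor was the entry enzyme Cpt1a (−0.39, SE 0.27, edgeR adjusted p = 0.313). The fatty acid transport protein Fabp1, counted with the hepatocyte genes, fell from a median of 4942 CPM (2936 to 10117) to a median of 1948 CPM (390 to 3146), a change of −1.58 (SE 0.33, edgeR adjusted p = 0.00158).

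Lipid synthesis genes had a large spread at 2 months. Of 25 tested genes 6 fell and none rose, against 8.91% of all genes called down and 15.6% up. Me1, which makes NADPH for lipid synthesis, fell from a median of 282 CPM (149 to 912) to a median of 80.5 CPM (8.38 to 156), a change of −2.32 (SE 0.43, edgeR adjusted p = 0.000550), and Agpat2, an enzyme of triglyceride assembly, from a median of 282 CPM (244 to 329) to a median of 192 CPM (85.7 to 236) without overlap, a change of −0.64 (SE 0.14, edgeR adjusted p = 0.00225). The desaturase Scd1 and the fatty acid synthase Fasn were not called (−1.07, SE 0.56, edgeR adjusted p = 0.169 and −0.59, SE 0.54, edgeR adjusted p = 0.456). Among the young mice 2M.N3 and 2M.N4 stood out in both, with 41858 and 41844 CPM of Scd1 against 1585 to 16918 in the other 8, and 2534 and 2428 CPM of Fasn against 145 to 971. Their regulator Srebf1 changed by 0.72 (SE 0.31, edgeR adjusted p = 0.0988) with all livers and by 0.87 (edgeR adjusted p = 0.0115) without the pair. None of 21 genes of cholesterol synthesis was called in edgeR or DESeq2 and 0 had an unadjusted p under 0.05 in edgeR, with changes from −0.45 to 0.35.

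Respiratory chain genes fell together by small amounts. Of 27 nuclear genes for its complexes 21 fell and none rose (22 without the pair), all 27 had a negative change, and the range was −0.69 to −0.29. Cyc1, cytochrome c1 of complex III, was 205 to 300 CPM at 2 months and a median of 162 CPM (78.5 to 194) at 24 months, with no overlap and a change of −0.66 (SE 0.13, edgeR adjusted p = 0.00110). Uqcrfs1, the iron-sulfur protein of the same complex, changed by −0.52 (SE 0.11, edgeR adjusted p = 0.00130), also without overlap. The summed level was 6870.3 to 9673 CPM at 2 months and 5458 to 6926 CPM in the 8 typical old livers. With total counts in place of TMM the median of the list was −0.34 and 9 of the 27 were called down.

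In bile acid synthesis 5 of 13 genes fell and none rose. Cyp8b1, which sets the share of cholic acid, had 261, 688 and 923 CPM at 2 months and 2.22, 155 and 475 CPM at 24 months, with the lowest value in 24M.N3, and changed by −1.72 (SE 0.53, edgeR adjusted p = 0.0213) or by −1.44 (edgeR adjusted p = 0.00495) without the pair. Cyp39a1, a hydroxylase of oxysterols, fell by 1.09 (SE 0.22, edgeR adjusted p = 0.00139). The rate-limiting Cyp7a1 was not called (−0.25, SE 0.38, edgeR adjusted p = 0.668). Of 14 genes of bile acid transport and sensing, Abcc4, an export pump of the blood side, rose by 1.31 (SE 0.21, edgeR adjusted p = 0.000193) and Slco1a4 rose by 0.98 (edgeR adjusted p = 0.0495), while Slco1a1, given above, and Abcb11, the bile salt export pump, fell. The change of Abcb11, −0.65 (SE 0.23, edgeR adjusted p = 0.0476), was called in only 5 of the 20 fits that each left out 1 liver, and with −0.45 (edgeR adjusted p = 0.0165) without the pair. With 2 genes up and 2 down of 14, the transport list was near the shares of all genes called, 15.6% up and 8.91% down.

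Of 19 genes of glucose metabolism 5 fell and none rose. G6pc, the last step of glucose release, had 209, 525 and 946 CPM at 2 months and 18.4, 173 and 267 CPM at 24 months and changed by −1.90 (SE 0.40, edgeR adjusted p = 0.00177). Pygl, liver glycogen phosphorylase, changed by −0.97 (SE 0.23, edgeR adjusted p = 0.00401) and Pfkfb1, a regulator of glycolysis, by −0.93 (SE 0.27, edgeR adjusted p = 0.0140). Pck1, which commits carbon to glucose synthesis, was not called (−0.68, SE 0.42, edgeR adjusted p = 0.246). The urea cycle and amino acid breakdown held 2 increases among 19 genes, Phgdh, the first step of serine synthesis, with 4.24 (SE 0.75, edgeR adjusted p = 0.000425) or 2.44 (edgeR adjusted p = 1.91e-05) without the pair, and Asns, asparagine synthetase, whose change of 1.04 (SE 0.37, edgeR adjusted p = 0.0462) was 1.01 (edgeR adjusted p = 0.0697) without the pair and was called in 6 of the 20 fits that left out 1 liver. Cps1, the entry of the urea cycle, was not called (−0.26, SE 0.30, edgeR adjusted p = 0.555). Among 23 genes of xenobiotic metabolism and of the oxidative stress factor NRF2, 3 rose and none fell (5 and none without the pair, 4 and 3 without all 4 atypical livers): Nqo1 by 0.89 (SE 0.16, edgeR adjusted p = 0.000474), the heme oxygenase gene Hmox1 by 1.83 (SE 0.34, edgeR adjusted p = 0.000562) or 1.14 (edgeR adjusted p = 3.02e-06) without the pair, and the glutathione transferase gene Gsta2 by 0.93 (SE 0.31, edgeR adjusted p = 0.0330). Gsta2 was called in 11 of the 20 fits that left out 1 liver. Of all genes tested with all livers, 15.6% were called up and 8.91% down. With all livers, neither the xenobiotic list nor that of the urea cycle and amino acid breakdown held a larger share of increases. Without the pair 13.9% of all genes were called up, and the 5 of 23 xenobiotic genes were above that share. Between 9 and 30 months in Run 1, 8 of 23 xenobiotic genes and 6 of 19 of the urea cycle list rose, against 16.4% of all genes.

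Of 18 genes that define hepatocytes, Fabp1 alone was called with all livers, against 24.5% of all genes. Without the pair 1 rose and 3 fell, against 23.4%. Between 9 and 30 months in Run 1, 2 rose and 5 fell, against 16.4% of all genes called up and 13.7% down, so that the share of decreases was larger there. Alb (−0.01, SE 0.35, edgeR adjusted p = 0.987) and the master regulator Hnf4a (−0.32, SE 0.27, edgeR adjusted p = 0.415) were not called. None of 12 genes of the hepatocytes around the central vein was called by edgeR or DESeq2 with all livers, and 1 (Cyp1a2, picked out after its value was seen) had an unadjusted p under 0.05, while Oat, an enzyme of that zone, changed by 0.82 (edgeR adjusted p = 0.0114) without the pair. Among 11 genes of the portal side Cdh1, which encodes E-cadherin, fell from a median of 37.3 CPM (18.4 to 50.5) to a median of 8.91 CPM (3.36 to 26.6), a change of −1.62 (SE 0.32, edgeR adjusted p = 0.00107). Cyp2f2 changed by −1.002 (SE 0.38, edgeR adjusted p = 0.0605) with all livers and by −0.78 (edgeR adjusted p = 0.00235) without the pair.

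Of 12 tested genes of fetal liver and liver tumours 6 rose and 1 fell, against 15.6% of all genes called up and 8.91% down. The imprinted H19 went from a median of 0.256 CPM (0 to 0.558) to a median of 0.851 CPM (0.276 to 21.8), a change of 3.85 (SE 0.80, edgeR adjusted p = 0.00147) or 2.24 (edgeR adjusted p = 0.00207) without the pair, and Cd24a rose from a median of 1.82 CPM (1.45 to 2.71) to 2.80 to 11.3 CPM in the 8 typical old livers, with 128 CPM in 24M.N3 and 84.6 in 24M.N10. The imprinted Peg3 fell from a median of 11.2 CPM (8.16 to 20.5) to a median of 3.49 CPM (1.13 to 6.07) without overlap, by 1.71 (SE 0.26, edgeR adjusted p = 0.000111). Alpha-fetoprotein (Afp) was not called (−0.25, SE 0.34, edgeR adjusted p = 0.632).

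Of 25 acute phase genes 7 rose and none fell, with a median of 0.45. Without the pair 8 rose, and without 2M.N2 and 2M.N9 as well 14 did, with a median of 0.79. Of all genes 15.6%, 13.9% and 16.0% were called up in these settings, in that order. Lcn2, a siderophore-binding protein, had 2.97, 5.12 and 83.0 CPM at 2 months and 18.97, 143 and 516 CPM at 24 months and changed by 3.31 (SE 0.81, edgeR adjusted p = 0.00497); 2M.N2 and 2M.N10 were the highest of the young livers. Orm3 rose by 3.41 (SE 0.62, edgeR adjusted p = 0.000517) and Il1rn, the antagonist of interleukin 1, by 2.16 (SE 0.34, edgeR adjusted p = 0.000176), the latter without overlap between the ages. Serum amyloid A (Saa1), the most inducible of them, had a median of 80.3 CPM (26.9 to 2708) at 2 months and a median of 196 CPM (63.8 to 2023) at 24 months and was not called (−0.57, SE 0.89, edgeR adjusted p = 0.679). The zinc-binding metallothioneins Mt1 and Mt2, picked out after their values were seen, changed by 3.75 (edgeR adjusted p = 0.000849) and 3.97 (edgeR adjusted p = 0.00360).

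Stellate cell and matrix genes rose in part. Of 26 genes 11 were called up and none down. Dcn, the proteoglycan decorin, went from a median of 169 CPM (139 to 193) to a median of 268 CPM (231 to 336) without overlap, a change of 0.72 (SE 0.10, edgeR adjusted p = 4.88e-05), and Pdgfra, a growth factor receptor of fibroblasts, from a median of 5.52 CPM (3.29 to 6.44) to a median of 10.7 CPM (7.92 to 16.7) without overlap, a change of 1.07 (SE 0.14, edgeR adjusted p = 4.75e-05). The fibrillar collagens were not called: Col1a1 changed by 0.29 (SE 0.49, edgeR adjusted p = 0.702) and Col3a1 by 0.03 (SE 0.36, edgeR adjusted p = 0.962), and without the pair by −0.30 and −0.45. Their highest old values, 93.8 and 203 CPM, were those of 24M.N10, and the highest young values those of 2M.N4. Acta2, a marker of activated stellate cells, was not called (0.84, SE 0.38, edgeR adjusted p = 0.113). Of 18 endothelial genes 3 fell (5 without all 4 atypical livers), among them Wnt2, a signal of the central vein, by 1.03 (SE 0.27, edgeR adjusted p = 0.00715), and Ehd3, of the sinusoids, by 0.69 (SE 0.20, edgeR adjusted p = 0.0163), and with total counts the median of the list turned from −0.12 to 0.06. Bile duct genes gave 2 increases and 1 decrease among 10, with Krt19 and Epcam not called (−0.04, SE 0.22, edgeR adjusted p = 0.912 and 0.39, SE 0.21, edgeR adjusted p = 0.183). Of all genes tested with all livers, 15.6% were called up and 8.91% down. The bile duct counts are near these shares. The endothelial list held no increase, and its 3 decreases among 18 were a larger share than 8.91%. Without all 4 atypical livers its 5 decreases stood against 12.4% of all genes, and with total counts 3 of its genes rose and 2 fell.

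Genes of tissues next to the liver and of blood were looked at for material that comes along with a liver sample. Of 17 listed, 8 passed the filter and 3 rose with all livers, against 1 without the pair. Hba-a1, a globin of red cells, had a median of 30.1 CPM (13.3 to 42.2) at 2 months and 19.02 to 59.5 CPM in the 8 typical old livers, with 377 CPM in 24M.N3, and changed by 1.38 (SE 0.47, edgeR adjusted p = 0.0360) and by 0.45 (edgeR adjusted p = 0.159) without the pair. Its call held in 14 of the 20 fits that left out 1 liver. Wt1, a marker of the mesothelium that covers the liver, rose from a median of 0.348 CPM (0.0476 to 0.644) to a median of 1.17 CPM (0.507 to 1.50), by 1.62 (SE 0.28, edgeR adjusted p = 0.000348). The pancreatic elastase gene Cela2a was among the 12 largest decreases (−4.69, SE 1.20, edgeR adjusted p = 0.00661) through 2M.N2 alone. It had 103 CPM there and at most 1.14 CPM in every other liver, and its change was −0.53 and not called when 2M.N2 was left out.

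Proliferation genes were high in the atypical livers. Of 28 tested genes of the cell cycle 10 rose and none fell, against 15.6% of all genes called up. Without 24M.N3 and 24M.N10 only Ccnd1 and Cdc20 were called and the median was 0.17, with 13.9% of all genes called up. Between 9 and 30 months in Run 1, which holds neither liver, 11 of 25 rose and none fell. The median there was 0.41, and 16.4% of all genes were called up. Mki67, a marker of dividing cells, had a median of 2.28 CPM (1.43 to 16.6) at 2 months, 2.35 to 9.34 CPM in the 8 typical old livers and 69.5 CPM in 24M.N10, and changed by 1.85 (SE 0.68, edgeR adjusted p = 0.0510) and by 0.25 (edgeR adjusted p = 0.748) without the pair. Ccnd1, which encodes cyclin D1, rose from a median of 33.3 CPM (15.9 to 57.2) to a median of 100 CPM (60.2 to 328) without overlap, by 1.79 (SE 0.33, edgeR adjusted p = 0.000622). Of 21 genes linked to p53 and senescence 11 rose, with and without the pair. Cdkn2a, the locus of p16 and p19Arf, had 0, 0.0993 and 0.453 CPM at 2 months and 0.740, 1.45 and 3.84 CPM at 24 months, without overlap and with a change of 3.44 (SE 0.44, edgeR adjusted p = 3.26e-05). Eda2r, a p53 target that encodes a death receptor, rose by 1.58 (SE 0.26, edgeR adjusted p = 0.000234). The cell cycle inhibitor Cdkn1a was not called (−0.98, SE 0.43, edgeR adjusted p = 0.0991). Among 19 genes of protein folding stress, Atf3 rose by 2.30 (SE 0.42, edgeR adjusted p = 0.000506) and Hspa1b fell by 1.88 (SE 0.54, edgeR adjusted p = 0.0136). The changes of Ddit3 and Sdf2l1 (0.88 and 1.01) were called in 9 and 8 of the 20 fits that left out 1 liver. The chaperone gene Hspa5 was not called (0.66, SE 0.35, edgeR adjusted p = 0.170), with 4269 CPM in 24M.N8, 3372 in 24M.N7, 1869.7 in 24M.N4 and 1258 in 24M.N9 against at most 1164 in all young livers.

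Clock genes split the old mice. The clock is a loop in which Arntl and Clock (with Npas2) activate Per, Cry and Nr1d1, which repress them in turn, and in which Dbp and its relatives carry the rhythm to other genes. Of 20 clock genes 7 rose and 5 fell (9 and 4 without the pair). Among all genes 15.6% were called up and 8.91% down, or 13.9% and 9.53% without the pair. Dbp (chromosome 7 from 45705088 to 45710203) was low in every young liver, with 0.886, 2.02 and 3.71 CPM as the lowest, median and highest values. Among the old livers it had 129, 101, 77.3, 76.5 and 52.2 CPM in 24M.N9, 24M.N2, 24M.N1, 24M.N8 and 24M.N10, 14.8 in 24M.N6, and 3.52, 2.77, 2.25 and 1.33 in 24M.N5, 24M.N3, 24M.N4 and 24M.N7. The last 4 were within the range of the young livers. The change of Dbp was 4.42 (SE 0.77, edgeR adjusted p = 0.000350). Arntl took the opposite order, with 3.56 to 8.44 CPM in the 5 old livers with the most Dbp, 9.90 in 24M.N3, 22.6 to 36.2 in the other 4 and 24.7 to 49.4 in the young livers, a change of −1.15 (SE 0.37, edgeR adjusted p = 0.0276) that was not called without 24M.N10 (−1.05) or without the pair (−0.99). Nr1d1 already split the young livers, with 4.57 to 11.8 CPM in 2M.N1, 2M.N7, 2M.N8 and 2M.N9 and 37.0 to 52.2 in the other 6.

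Other clock genes were set beside the split. Clock fell from a median of 61.5 CPM (51.3 to 71.9) to a median of 33.8 CPM (22.1 to 48.8) with every old liver below every young one, a change of −0.81 (SE 0.13, edgeR adjusted p = 0.000186). It also followed the split, with 22.1 to 34.2 CPM in the 5 old livers with the most Dbp. In 24M.N3 it was 31.6 CPM, and in 24M.N4 to 24M.N7 39.1 to 48.8 CPM. Bhlhe41, a repressor in the loop, rose from a median of 0.392 CPM (0.241 to 0.778) to a median of 2.28 CPM (0.731 to 14.3), by 3.23 (SE 0.44, edgeR adjusted p = 4.82e-05). It had 2.03 to 14.3 CPM in the 5 old livers with the most Dbp and 0.731 to 3.33 CPM in the other old livers, which overlap. Per3 had 1.29 to 3.18 CPM in the young livers and 15.9 to 38.0 CPM in the same 5 old livers that led in Dbp. Dbp binds the D box, and the 250 bases before the start of Per3 (RefSeq, GRCm38.p6, chr4:151044666-151044915, minus strand, 5′ to 3′) are shown with the letters TTATGTAA, searched on both strands, in capitals.
Per3: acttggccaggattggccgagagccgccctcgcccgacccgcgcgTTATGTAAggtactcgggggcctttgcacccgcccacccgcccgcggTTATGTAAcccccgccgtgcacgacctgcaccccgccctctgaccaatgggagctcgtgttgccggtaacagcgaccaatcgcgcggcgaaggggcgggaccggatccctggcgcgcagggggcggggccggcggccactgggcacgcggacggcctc
Both matches lie upstream, beginning 205 and 158 bases before the start. The letters stood in 0.819% of the promoter windows, and a match is not evidence of binding.

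The split of the old mice appeared in the colon too. The 5 mice with the most Dbp in the liver also had the 5 highest values in the colon among the old mice, from 19.98 CPM in 24M.N1 to 30.6 CPM in 24M.N8, with 15.3 in 24M.N6 and 3.49 to 6.96 in the other 4. In the brain these 5 mice had 68.4 to 87.6 CPM and the other 5 had 50.3 to 71.6. The mice were killed on 3 consecutive mornings in cohorts randomized by age, per the study's methods, and the labels give neither the morning nor the hour of a mouse, so that age and hour of sampling cannot be told apart for these genes.

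**Figure D4:**
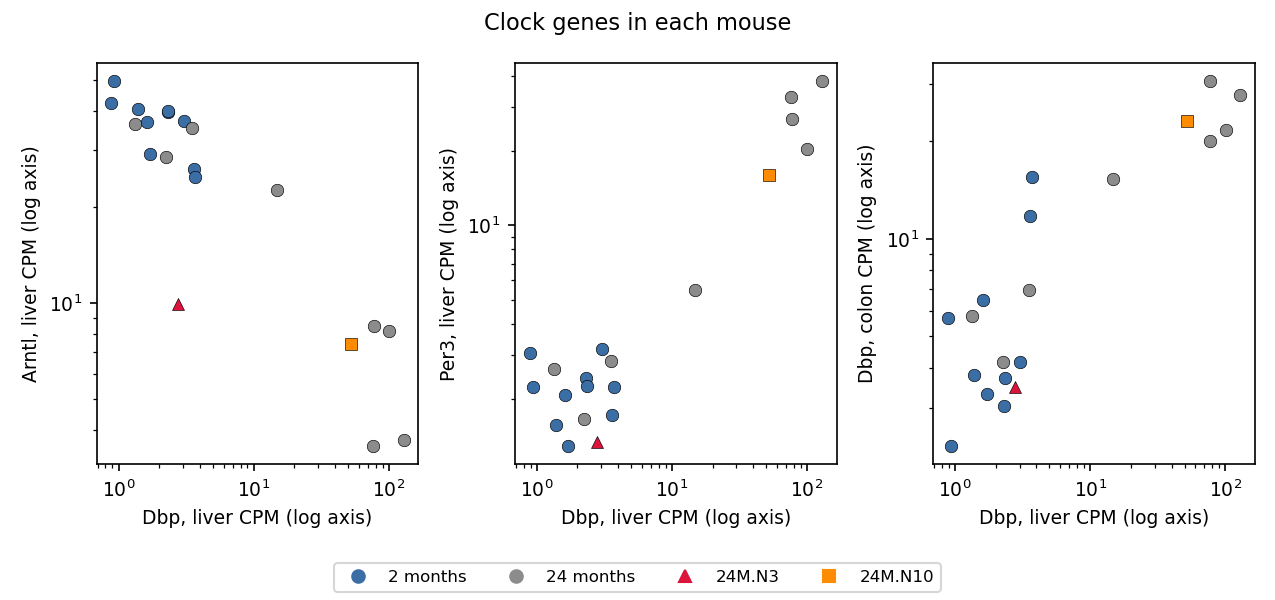
Each point is a mouse of 2 or 24 months, with Dbp in the liver (x axis, CPM) against Arntl in the liver, Per3 in the liver and Dbp in the colon (y axes, CPM), all on log axes; the triangle is 24M.N3 and the square 24M.N10. The 5 mice of 24 months with 52.2 to 129 CPM of Dbp in the liver stand apart in all 3 panels, at the low end for Arntl and at the high end for Per3 and for Dbp in the colon.

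The 24-month livers that stood apart were described by the genes farthest from the median of the other 8 livers of their age, without a test; the ranges given are those of the other 8. In 24M.N3 the genes highest above them were S100a9 and S100a8, Clec4a2, a C-type lectin of myeloid cells (173 CPM against 2.41 to 5.79), Cd207, the lectin langerin (713 against 2.69 to 35.7), the chemokine gene Ccl24, Ms4a8a, Trem2 and Ptpn18. Those farthest below were hepatocyte genes, among them Cyp4a12a, Cyp2b9, Ces1f (2.71 CPM against 234 to 399), Cyp8b1 (2.22 against 64.2 to 475), Serpina6 and Car3. In 24M.N10 the leading genes were Cpxm1 (166 CPM against 2.24 to 5.87), the proliferation genes Top2a (71.3 against 1.84 to 9.18) and Mki67, Cd24a, Tbc1d4, Col5a2, Ubd and Cd4 (28.7 against 0.768 to 4.81). The genes farthest below the others were major urinary proteins, Elovl3 and Slco1a1. Hepatocyte genes summed to 25965 CPM in 24M.N3 and 94194 in 24M.N10, against 126682 to 161296 CPM in the other old livers.

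The changes were then set beside those of mice that shared no library with them. In Run 1 the livers of 10 mice of 30 months were compared with those of 8 mice of 9 months by the same test, which called 4200 of 13950 genes (30.1%), 2289 up (16.4%) and 1911 down (13.7%). Of the 2224 increases between 2 and 24 months 2131 were tested there, 2080 (97.6%) had the same sign and 1559 (73.2%) were called in that direction. Of the 1271 decreases 1246 were tested, 1205 (96.7%) had the same sign and 775 (62.2%) were called. Among all 13808 genes tested in both comparisons 79.2% had the same sign, and the changes had a Pearson correlation of 0.849 across genes, which are not independent replicates. Calls in the opposite direction were made for 6 of the increases and 0 of the decreases. The age spans differ, and the comparison in Run 1 begins at 9 months.

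Most of the groups described above moved the same way there. All 19 major urinary proteins and 17 of 21 male-biased genes fell, 17 of 27 female-biased genes rose, all 11 MHC class II genes rose (median 1.98), 20 of 23 T and NK cell genes and 12 of 16 B and plasma cell genes rose, and 25 of 28 genes of fatty acid oxidation and 19 of 27 of the respiratory chain fell. Slc22a26 changed by 5.50 (edgeR adjusted p = 2.48e-05), Ntrk2 by 3.01 (edgeR adjusted p = 2.73e-05), Gpnmb by 3.93 (edgeR adjusted p = 7.72e-06), Hsd3b5 by −3.32 (edgeR adjusted p = 0.0200) and Acot1 by −2.99 (edgeR adjusted p = 2.42e-05). The clock list gave 1 increase and 1 decrease among 20 genes, against 16.4% of all genes called up and 13.7% down, with Dbp at 1.32 (edgeR adjusted p = 0.373). Of 21 genes of p53 and senescence 4 rose in Run 1, beside 16.4% of all genes, with Eda2r at 0.32 (edgeR adjusted p = 0.381). Between 2 and 24 months 11 rose, beside 15.6% of all genes. Whether the changes differ between the comparisons was not tested.

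**Figure D5:**
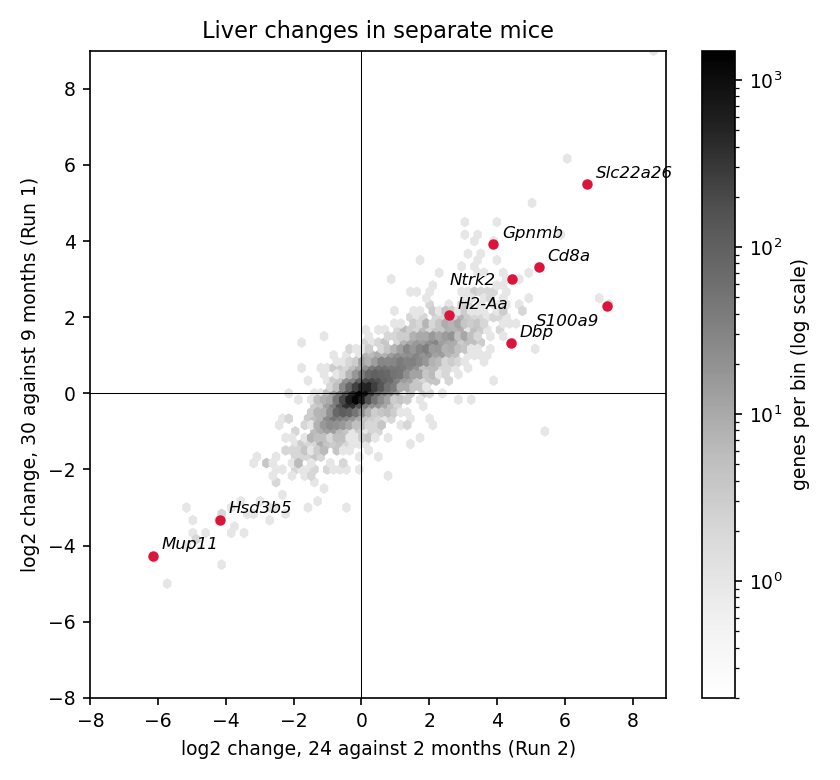
Log2 change of each gene in the liver between 24 and 2 months (x axis, Run 2) and between 30 and 9 months (y axis, Run 1); darker bins hold more genes and named genes are marked in red. Genes spread along a band from the lower left, with Mup11 and Hsd3b5, to the upper right, with Slc22a26; Dbp and S100a9 lie below the band, with smaller changes in Run 1 than in Run 2.

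The liver changes were also tested against those in the brain and the colon of the same 20 mice, taken by the mouse names that the tissues share, as an interaction of tissue and age with the mouse as a block. The change differed between liver and brain for 2370 of 19197 genes (12.3%) and between liver and colon for 2591 of 18208 (14.2%); the colon libraries belong to Run 3 at both ages, so that tissue and run cannot be told apart in the level, but the age contrast lies within each run. Both tests use the same liver libraries as the comparison above, so that their counts are not independent of it. A gene that brain or colon hardly express can differ through its liver counts alone, so lists were counted over genes that passed the filter in each tissue by itself, a restriction chosen after the data were seen. Over all such genes the change was higher in the liver for 8.88% and lower for 5.96% of 13155 against the brain, and for 10.2% and 5.02% of 13449 against the colon. All 11 MHC class II genes rose more in the liver than in the brain and 10 of 11 more than in the colon. Of the T and NK cell genes 10 of 11 rose more than in the brain and 18 of 24 more than in the colon. Respiratory chain genes fell more in the liver for 15 of 27 against the brain and 13 of 27 against the colon, and genes of fatty acid oxidation for 12 and 10 of 25. Male-biased genes had a lower change in the liver for 2 of 8 against the brain and 8 of 11 against the colon, and a higher change for 1 in each test. Of the major urinary proteins 2 passed the filter in the brain, both with a lower change in the liver, and none did in the colon, so that a difference from the colon could not be tested for them. MHC class I differed in the other direction against the brain, where the change in the liver was smaller for 5 of 15 genes and larger for 1.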

How the data were processed

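Liver RNA of each mouse was sequenced from stranded polyA libraries, and the authors deposited raw read counts per gene for 52 livers, with similar tables for brain and colon. Per the submitters' processing notes, cutadapt 1.12, HISAT2 2.1.0, SAMtools 1.9 and HTSeq 0.6.1 were used with the genome build GRCm38.p6; the annotation release and the strand setting of the counting were not given in the sources used here. Identifiers were matched to symbols and coordinates of GENCODE M21 (55144 of 55471), and promoter sequences came from RefSeq on GRCm38.p6. All columns were mapped to a sample (0 unmapped).

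Counts of the 20 livers were tested with edgeR 4.0.16 in R 4.3.3 (quasi-likelihood F-test, two-sided, TMM factors, filterByExpr set to 10 counts per library, 15 in total and a proportion of 0.7, and a threshold of 0.05 after Benjamini-Hochberg adjustment), with no covariate. The same test was used for Run 1 and, with the mouse as a block, for the interaction of tissue and age. CPM values use TMM factors over the 52 livers and carry counting error at low levels; totals ran from 20418489 to 37381903 counts. The test was checked on simulated data. DESeq2 1.42.0, its size factors, total counts, other filters, thinning to the smallest total, a replicate block, all 52 livers and leaving out livers were alternatives. Figures and summaries used Python 3.11.15, numpy 2.4.6, pandas 2.3.3 and matplotlib 3.10.9. No 2 livers of an age agreed within sampling noise (smallest chi-square per degree of freedom 16.3).

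Named genes were the 12 largest increases and 12 largest decreases with a mean log2 CPM of at least 1 that were called in the same direction with and without 24M.N3 and 24M.N10 (leaving out unnamed gene models and the segments of antigen receptors), the key members of each of 34 gene lists with the 2 others of smallest p, the 8 genes farthest above and below the other livers in 24M.N3 and 24M.N10, and, for tissue differences, the first 5 of each direction. Genes outside this rule are given as picked out after their values were seen. Some genes are not reported here. The comparison, its lists and its alternatives were chosen with earlier results of these data known.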

Additional observations from a re-analysis of the deposited data

Results flagged for a closer look

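In 65 of 328 sets of 10 livers of one age (a named gene or library measure at one age), the highest or lowest liver stood apart: its gap to the nearest other liver, on the log2 scale for genes, divided by the whole range of the 10, was above Dixon's 95% critical value for 10 samples. Chance marks about 1 in 20 such sets if they are independent. These sets share the same livers, many genes were named for their change, and the flagged livers are those named above as atypical. The count of 65 therefore cannot be judged by that rate. The values in parentheses are this ratio.

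The liver of 24M.N3 was the lowest by such a gap for Ghr (0.527), Igfals (0.697), Cyp8b1 (0.596), Cyp27a1 (0.555), Abcb11 (0.581), Slc10a1 (0.542), Nr1h4 (0.487), Ppara (0.516), Srebf1 (0.578), Fasn (0.632), Scd1 (0.504), Pmvk (0.499), Nsdhl (0.583), Pck1 (0.560), Pygl (0.471), Pfkfb1 (0.587), Cps1 (0.708), Cyc1 (0.467), Nqo1 (0.486), Alb (0.722), Hnf4a (0.653), Cyp2e1 (0.607), Cyp1a2 (0.556), Oat (0.517), Cyp2f2 (0.829), Gpc3 (0.700), H2-K1 (0.543), Nr1d1 (0.636) and the share of counts on the 10 leading genes (0.619). It was the highest for S100a9 (0.675), S100a8 (0.682), Chil3 (0.522), Clec4f (0.734), Trem2 (0.851), Lgals3 (0.494), Csf3r (0.681), Stab2 (0.688) and Hba-a1 (0.619). The liver of 24M.N10 was the highest for H2-M2 (0.540), Ciita (0.515), H2-Q4 (0.530), Cd3e (0.529), Itgax (0.6004), Col1a1 (0.546), Col3a1 (0.496) and Cdkn2a (0.491).

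Among the livers of 2 months, 2M.N9 was the lowest for Cyp8b1 (0.613), Cyp39a1 (0.551), Hsd17b4 (0.704), Slc10a1 (0.645), Cpt1a (0.641), Glul (0.483), Cyp2f2 (0.730), Cdh1 (0.524), Gpc3 (0.697), H2-K1 (0.768), H2-D1 (0.567), Pdgfra (0.656), Pecam1 (0.547), Wt1 (0.504) and Hspa5 (0.517), and the highest for Cd24a (0.512) and Wnt2 (0.480). The liver of 2M.N2 was the highest for Cela2a (0.782) and Peg3 (0.492).

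Of the 10 named genes tested for a difference between tissues, 1 differed in a test where it passed the count filter in both tissues alone. Ccl8 rose more in the liver than in the colon of the same mice, by 3.60 on the log2 scale (SE 0.88, edgeR adjusted p = 0.00923). The difference comes from a fit within mice and need not equal that of the changes fitted in each tissue alone, which were 6.85 in the liver and 1.03 in the colon.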

How the results depend on the processing

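Counts of called genes kept within 1.5 times of the value reported under most alternatives. For the 20 livers (3495 in all, 2224 up, 1271 down), DESeq2 called 3438, its size factors 3498, no low-count filter 4347, a minimum count of 30 2823 and thinning 3294. Total counts called 632 down, and a fit of all 52 livers with run called 6370 genes, 3731 up and 2639 down, with more residual degrees of freedom. Leaving out each liver in turn gave 2867 (without 24M.N10) to 3810 (without 24M.N3) genes, 1953 to 2338 up and 914 to 1472 down. Replicate numbers are shared by the ages only as numbers (correlation of deviations −0.26 to 0.17; 0 samples correlated best with their own number), and with the replicate block 2428 genes were called, 1495 up and 933 down. In Run 1 total counts called 1208 down against 1911. For liver against brain (2370, 1495 up, 875 down), DESeq2 called 1381 down, total counts 470 down, no low-count filter 576 down, and dropping the mouse pairing (no mouse block) 3678 in all and 2509 up. For liver against colon (757 down, 1834 up), the values were 1361, 394 and 399 down, and 2807 up without the mouse block. Without 24M.N3 and 24M.N10 the tissue tests called 2403 and 2652. Of 163 named genes tested, 8 lost and 9 gained a call without 24M.N3 and 24M.N10, 3 lost and 7 gained one with total counts, and 10 lost and 1 gained one with the replicate block. None of these 163 genes was called with opposite signs in the report and under an alternative. Beyond the construction of each alternative, the causes were not tested. Depth limits genes of few reads: at 2 months, Gzmk had 5 counts over the 10 libraries.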
